A study of Mus musculus with 6 samples.

Results

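Nkx2-5, Nkx3-2, Nkx2-3 and Barx1 are 4 homeobox genes of the mesenchyme that surrounds the embryonic stomach, pancreas and spleen. They were chosen by name, and each was represented by the probe set that carried its symbol alone, which was 1 probe set per gene. All 4 were among the 18710 genes tested. Expression was measured on 6 Affymetrix arrays of total RNA from mouse spleens at E13.5, with 3 arrays for Tlx1 heterozygotes and 3 for Tlx1 homozygotes. The Tlx1 allele is not named in the labels. Taking the zygosity to refer to an altered allele, every sample carries at least 1 altered copy and there is no wild-type group. Nor do they say whether an array holds 1 embryo or a pool, so the p-values speak only of the spread among these samples, and that spread may be technical.

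Homeobox genes encode transcription factors that bind DNA through a homeodomain. The spleen arises as a condensation of mesenchyme beside the stomach and dorsal pancreas, and Tlx1, itself an NK-like homeobox gene, is needed for that condensation to persist. Nkx2-5 is best known as a heart regulator and also marks the early spleen anlage. Nkx3-2, also called Bapx1, acts in the mesenchyme that separates spleen from pancreas, and in the vertebral column. Nkx2-3 is needed for normal spleen architecture and for expression of the vascular adhesion molecule Madcam1. Barx1 acts in stomach mesenchyme, where it dampens Wnt signalling in the overlying epithelium, and it is also needed for the spleen.

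The label of the tissue was set against its markers. Tlx1, Wt1 and Tcf21, which mark the spleen primordium, all gave signal on every array, with Wt1 at 2208 ± 43.1 and Tcf21 at 3424 ± 74.4 intensity units in heterozygous spleens (SD, n = 3). Array medians ran from 106 to 110 intensity units. Across genes, arrays of the same group had correlations of 0.995 to 0.997 and arrays of different groups 0.989 to 0.993. Y-linked genes were brighter on heterozygous arrays 1 and 3 (mean log2 values of 8.76 and 8.99) than on the other 4 arrays (8.07 to 8.22). Every homozygous array was among those 4, so the Y-linked level goes partly with genotype. A fit with that level as a covariate cannot fully separate them. It is also less precise, with an SE for the log2 fold change of Barx1 of 0.11 against 0.08. The 3 Y-linked genes tested were not called, but all 3 were called lower without heterozygous array 2.

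The promoter windows of Nkx2-5 and Nkx3-2 are shown because these genes fell by similar amounts. Each run is the 250 bases upstream of a RefSeq transcript start in GRCm38.p6, 5′ to 3′, with CpG dinucleotides in capitals. The Nkx2-5 window lies at chr17:26841566-26841815 on the minus strand, inside the annotated span of the gene, and the Nkx3-2 window at chr5:41764221-41764470 on the minus strand, directly before the gene.
Nkx2-5: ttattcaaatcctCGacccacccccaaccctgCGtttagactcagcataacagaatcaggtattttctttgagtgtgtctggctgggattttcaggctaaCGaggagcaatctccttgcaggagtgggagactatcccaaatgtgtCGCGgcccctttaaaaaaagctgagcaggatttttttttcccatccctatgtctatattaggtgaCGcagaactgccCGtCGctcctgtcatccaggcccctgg
Nkx3-2: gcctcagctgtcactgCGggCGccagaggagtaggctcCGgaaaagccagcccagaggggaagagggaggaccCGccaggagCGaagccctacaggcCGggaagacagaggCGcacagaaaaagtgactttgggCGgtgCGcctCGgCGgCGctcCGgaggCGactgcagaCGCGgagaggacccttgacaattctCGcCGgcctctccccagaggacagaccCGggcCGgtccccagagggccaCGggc
The Nkx2-5 window held 8 CpG and was 49.2% G and C, whereas that of Nkx3-2 held 21 CpG at 68.8%. Over 32817 promoter windows of the same length the medians were 6 CpG and 52.4%, and 92.1% held at least 1 CpG. The Nkx2-3 window (14 CpG) and the Barx1 window (40 CpG) were also above the median, and 1.31% of all windows held as many CpG as that of Barx1. The 3 short motifs, TNAAGTG for NK homeodomains, TAATTG for other homeodomains and AGGTCA for nuclear receptors, were searched on both strands. None was found in the 4 windows, while 10.1%, 7.17% and 14% of all windows held them.

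Nkx2-5 and Nkx3-2 fell more than 2-fold in homozygous spleens, Nkx2-3 fell by a smaller amount, and Barx1 lay slightly higher without passing the test. In all, 3 of the 4 genes were called and all 3 were lower. Over all genes tested 17.0% were called, 10.4% as higher and 6.56% as lower, at an adjusted p below 0.05 in limma. The groups did not overlap for any of the 4, against 38.3% of all genes. These are bulk samples, so fewer cells of a type and less RNA per cell cannot be told apart.

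Nkx2-5 (chr17:26838664-26844988) was measured at 679, 596 and 569 intensity units on heterozygous arrays 1, 2 and 3 and at 268, 182 and 278 on homozygous arrays 1, 2 and 3. Every homozygous array lay below every heterozygous array, and the highest homozygous value was 48.8% of the lowest heterozygous value. The means were 614 ± 57.4 and 243 ± 52.8 (SD, n = 3), so that 39.5% of the heterozygous signal remained. The log2 fold change, homozygous minus heterozygous on the log2(intensity + 1) scale, was −1.36 ± 0.15 (SE) with a 95% interval of −1.71 to −1.01 and an adjusted p of 0.00133. Only 23 of all genes tested, Nkx2-5 included, had a log2 fold change this low. Homozygous array 2 was the lowest, and without it the estimate was −1.16 (adjusted p = 0.000798).

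Nkx3-2 (chr5:41761483-41764220) had the tightest values of the 4 genes. It stood at 561, 545 and 558 on heterozygous arrays 1 to 3 and at 250, 224 and 235 on homozygous arrays 1 to 3. The groups were far apart relative to their spread, with coefficients of variation of 1.48% and 5.54% beside 9.34% and 21.8% for Nkx2-5. The means were 555 ± 8.19 and 236 ± 13.1 (SD, n = 3), leaving 42.6% of the heterozygous signal. The log2 fold change was −1.23 ± 0.06 (SE), with a 95% interval of −1.37 to −1.08 and an adjusted p of 2.1e-05. Of all genes, 28 had an estimate at least as low, and 20 had a p-value at least as small.

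Nkx2-3 (chr19:43612325-43615892) lies on the same chromosome as Tlx1, 1.53 Mb away. Its intensity was 431, 391 and 442 on heterozygous arrays 1 to 3, and 322, 372 and 317 on homozygous arrays 1 to 3. The groups came close without overlapping, since homozygous array 2 reached 95.2% of heterozygous array 2. The means were 421 ± 27.2 and 337 ± 30.4 (SD, n = 3), a fall of 1.25-fold. The log2 fold change was −0.32 ± 0.08 (SE; 95% interval −0.51 to −0.13; adjusted p = 0.0326). A fall of this size was common, with 799 genes at or below it. The call was lost without heterozygous array 1 or 3 or homozygous array 1 or 3 (−0.31, −0.29, −0.29 and −0.28). Its 2 highest values came from the arrays with the brightest Y-linked genes, and adjusting for the Y-linked level gave an estimate of −0.23 (adjusted p = 0.206). That level goes partly with genotype, so the adjusted fit cannot fully separate them. Nkx2-3 also missed the threshold after cyclic loess (−0.27, adjusted p = 0.0585) and after quantile normalization (−0.25, adjusted p = 0.0726).

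Barx1 (chr13:48663036-48666507) was measured at 1136, 1212 and 1347 on heterozygous arrays 1 to 3 and at 1482, 1397 and 1582 on homozygous arrays 1 to 3. All homozygous values lay above all heterozygous values. The means were 1232 ± 107 and 1487 ± 92.4 (SD, n = 3), a log2 fold change of 0.27 ± 0.08 (SE; 95% interval 0.09 to 0.46), and the adjusted p of 0.0517 missed the threshold. There were 2414 genes with an estimate at least as high. The adjusted p ranged from 0.0153 to 0.155 over 18 alternative settings and fell below 0.05 in 9 of them, among them cyclic loess (0.31, adjusted p = 0.0397) and the refits without heterozygous array 3 (0.34) or homozygous array 2 (0.32). Barx1 missed the threshold with the Y-linked covariate (0.31, adjusted p = 0.124). It also missed without heterozygous array 1 or 2 or homozygous array 1 or 3 (0.22, 0.26, 0.28 and 0.23).

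Tlx1 provides the check of the labels. It read 825, 706 and 719 on heterozygous arrays 1 to 3 and 171, 209 and 200 on homozygous arrays 1 to 3, a log2 fold change of −1.95 ± 0.09 (SE; adjusted p = 1.3e-05). Homozygous array 2 held the highest Tlx1 and the highest Nkx2-3 of its group, but the lowest Nkx2-5, Nkx3-2 and Barx1. Heterozygous array 1 held the highest Tlx1, Nkx2-5 and Nkx3-2 of its group and the lowest Barx1.

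**Figure D1:**
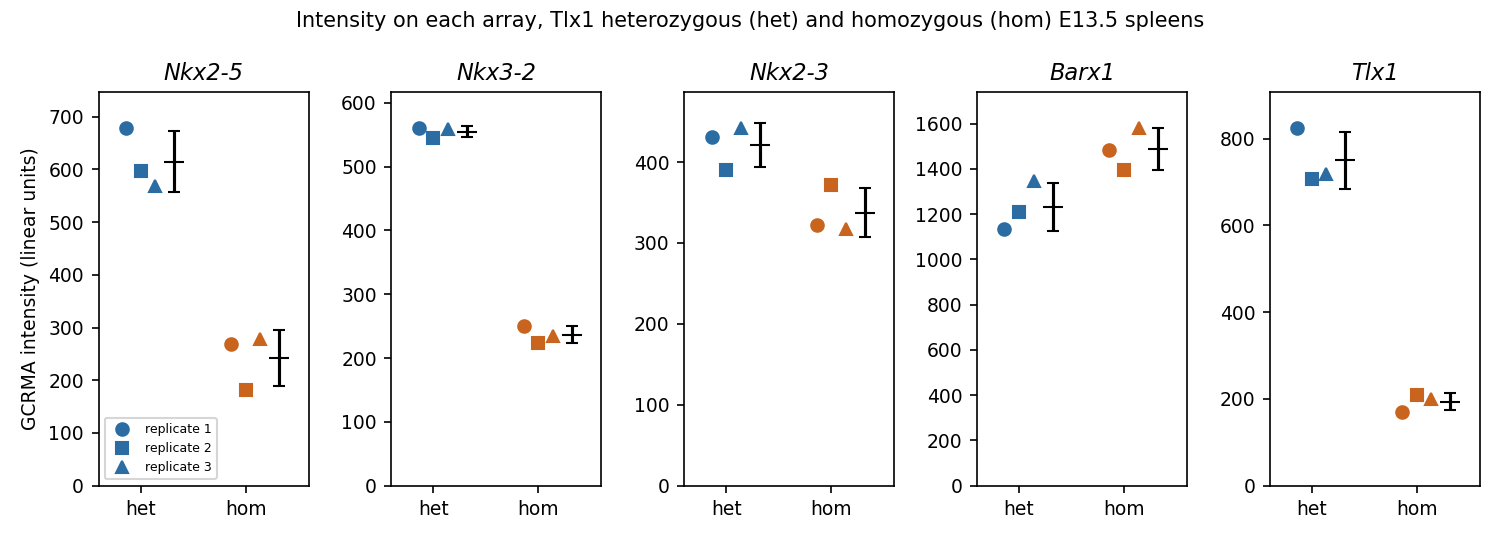
Deposited GCRMA intensity (linear units, axes from 0) of the 4 genes and Tlx1 on each of 6 arrays; markers stand for replicate number and black bars for mean ± SD (n = 3). Nkx2-5 and Nkx3-2 are separated by wide gaps, Nkx2-3 on homozygous array 2 (372) lies just under that of heterozygous array 2 (391), and all Barx1 values of the homozygous group lie above 1347.

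The size of the change was compared between the genes within arrays, with an exact two-sided permutation test over the 6 arrays for each of 6 pairs. With 3 arrays against 3 the smallest p this test can give is 0.1, so no pair could pass. Nkx2-5 and Nkx3-2 differed in log2 fold change by −0.13 ± 0.18 (SE; 95% interval −0.62 to 0.36; exact p = 0.6), and the within-array differences of the groups overlapped. Without homozygous array 2 this difference was 0.03. The fall of Nkx2-5 exceeded that of Nkx2-3 by 1.04 (difference −1.04 ± 0.28), and that of Nkx3-2 exceeded it by 0.91 (difference −0.91 ± 0.12). Against Barx1 the differences were −1.63 ± 0.21 for Nkx2-5, −1.50 ± 0.09 for Nkx3-2 and −0.60 ± 0.14 for Nkx2-3. In each of these 5 pairs the groups did not overlap and the exact p was 0.1 (0.12 after Benjamini-Hochberg adjustment over 6 pairs). For the 3 pairs with Barx1 this had to be so, since each gene alone separated the groups, in opposite directions. The p of 0.1 restates the separation, and its share among other gene pairs was not computed.

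**Figure D2:**
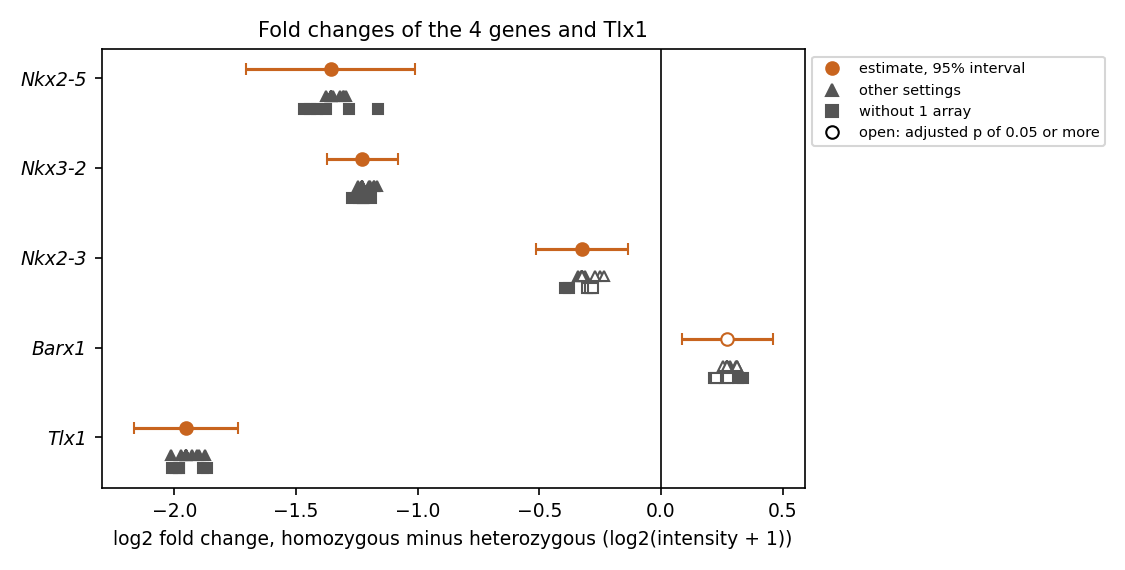
Log2 fold change (homozygous minus heterozygous) of the 4 genes and Tlx1, with the 95% interval of the limma fit in orange, 12 other settings as triangles and the 6 refits without 1 array as squares; open symbols have an adjusted p of 0.05 or more. Nkx2-5 and Nkx3-2 are filled throughout, between −1.47 and −1.16, whereas Nkx2-3 and Barx1 have symbols of both kinds.

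Genes whose values over the 6 arrays were most like those of each member were found from the root mean square difference of log2 values centred on each gene's mean. Nearest to Nkx2-5 were the fatty acid binding protein gene Fabp7 (0.13), the zinc finger factor gene Prdm16 (0.15) and the ectodysplasin receptor gene Edar (0.17), and its distance to Nkx3-2 was 0.19. Nearest to Nkx3-2 were Klhl6 (0.06), Edar (0.07) and Nwd2 (0.08). Klhl6 read 946 in heterozygous and 388 in homozygous spleens, and Edar 249 and 101 (means, n = 3). Nkx2-3 was closest to the centriolar gene Sclt1 (0.02), the cohesin acetyltransferase gene Esco1 (0.03) and the kinesin gene Kif22 (0.03). Barx1 was closest to Slc35e4 (0.01), Dhrs2 (0.02) and Ly6m (0.02), which are dim, at 28.9 to 81.2. Small changes are shared by many genes, and the 6 points fall into 2 groups, so closeness here largely restates the group difference.

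Around Tlx1, genes tied to early spleen formation moved both ways. Of 18 genes tested in this list 4 fell and 2 rose, beside 6.56% and 10.4% of all genes. The median log2 fold change was 0.13, against 0.02 over all genes. Apart from Tlx1, the falls were those of Wt1 (−0.33), a zinc finger factor of mesothelium and spleen, Tcf21 (−0.26), a mesenchymal bHLH factor, and the cyclin gene Ccnd1 (−0.25). The rises were those of Gata4 (0.61) and the LIM homeobox gene Isl1 (0.56). With the Y-linked covariate Gata4 lost its call (adjusted p = 0.0558). With 1 array left out, Tcf21 passed only when that was homozygous array 3, Ccnd1 never passed, and Wt1 failed without homozygous array 1. Counts of falls in the list were then 1 (without homozygous array 1), 3 (without homozygous array 3) or 2 (each other array), 2 after cyclic loess or with the replicate number as a block, and 1 with a Y-linked covariate. The cell cycle inhibitor gene Cdkn2b, known as a gene that Nkx2-5 represses in the spleen anlage, was outside the naming rule and was picked after its values were seen. It stood at 92.7 ± 1.71 and 108 ± 14.1 (means ± SD, n = 3; log2 change of 0.20, adjusted p = 0.157) and did not pass.

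NK factors repress targets through Groucho corepressors and work with kinases and Smad proteins. Among 17 such cofactor genes 5 fell and none rose (median −0.04), beside 6.56% and 10.4% of all genes. The Groucho gene Tle2 fell from 546 ± 40.2 to 301 ± 10.6 (means ± SD, n = 3; log2 change of −0.86 ± 0.07, adjusted p = 0.000321). Smaller falls were those of Tle6 (−0.46), Tle5 (−0.45), which encodes a short Groucho protein, the chromatin protein gene Hmga2 (−0.34) and Smad5 (−0.31). Between 2 and 5 of the list were lower in the refits without 1 array, the fewest without homozygous array 1, then 3 without heterozygous array 2. A Y-linked covariate also left 3. The other 12 did not pass.

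Of the genes that act with or downstream of Nkx2-5 in the heart, 5 of 24 rose and 1 fell (median 0.12). Over all genes 10.4% were called higher and 6.56% lower. The T-box repressor gene Tbx2 rose from 644 ± 23.9 to 1285 ± 30.9 (means ± SD, n = 3; log2 change of 1.0 ± 0.06, adjusted p = 5.7e-05). Gata4 (0.61), the bHLH factor gene Hand2 (0.56), Gata6 (0.52) and the dim Irx4 (0.34) rose too. The arterial connexin gene Gja5 fell (−0.32). Gja5 and Irx4 lost their calls in 4 refits each without 1 array. Gja5 lost it without any 1 heterozygous array or without homozygous array 3, and Irx4 without heterozygous array 1 or 2 or homozygous array 1 or 3. Gja5 also failed after quantile normalization, after cyclic loess and under the Y-linked covariate. Gata4 failed under that covariate too (adjusted p = 0.0558). The cardiac effector genes Nppa (74.5 and 68.1), Myh6 (49.3 and 52.7) and Nppb (64.0 and 63.3; heterozygous and homozygous means, n = 3) did not pass and were chosen after their values were seen.

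Nkx3-2 is known for its place in the axial skeleton beside Sox9, Pax1 and Pax9. In that list 8 of 15 genes rose and 1 fell (median 0.25), beside 10.4% and 6.56% of all genes. Sox9, the regulator of cartilage that also acts in pancreas and gut, read 292 ± 24.9 and 172 ± 12.0 (SD, n = 3) and fell by 0.76 on the log2 scale (adjusted p = 0.00124). Its partner gene Sox6 rose from 297 ± 9.71 to 469 ± 17.0 (log2 fold change 0.65 ± 0.06, adjusted p = 0.000565). Sox9 and Sox6 kept their calls in all 6 refits. The other rises were less stable, among them Acan (0.61), Shh (0.40), Pax1 (0.38) and Sulf1 (0.37). Acan, Shh and Pax1 were dim, at heterozygous and homozygous means of 36.9 and 56.8, 48.3 and 64.2, and 75.9 and 99.2 (n = 3). Among genes with means over all arrays of 53.9 to 145, which include Shh and Pax1, 19.6% were called higher. Between 2 and 6 genes of the list were higher in the refits without 1 array. Only 2 were higher without heterozygous array 2, without homozygous array 1 or with the Y-linked covariate, while 3 were without heterozygous array 1 or homozygous array 3. After cyclic loess or without heterozygous array 3, 5 were higher.

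Genes of spleen vessels and stroma linked to Nkx2-3 split evenly, with 4 of 15 higher and 4 lower (median 0.00). The shares over all genes were 10.4% higher and 6.56% lower. Madcam1, which encodes the adhesion molecule that depends on Nkx2-3, fell from 570 ± 54.6 to 328 ± 55.5 (means ± SD, n = 3; log2 change of −0.80 ± 0.12, adjusted p = 0.00466). The related adhesion gene Vcam1 rose from 266 ± 15.5 to 441 ± 55.3 (0.72 ± 0.10, adjusted p = 0.00285). Lyve1 (0.59) and the chemokine gene Cxcl12 (0.51) rose as well, while the endothelial genes Icam2 (−0.50) and Pecam1 (−0.44) fell. These 6 kept their calls in all 6 refits, though that of Lyve1 was lost with the Y-linked covariate (adjusted p = 0.072), which left 2 of the 4 rises. In the same samples 11 of 14 endothelium markers fell and none rose (median −0.39; 6 to 11 in the refits without 1 array, 6 without homozygous array 1 and 6 with the Y-linked covariate). The largest falls among them were Tek (−0.85), Cd34 (−0.76), Esam (−0.55), Tie1 (−0.55), Erg (−0.47) and Pecam1. The summed intensity of the 14 ran from 9362 to 9712 on heterozygous and from 6688 to 7125 on homozygous arrays. The part of endothelial content in the values of Nkx2-3 and Madcam1 was not tested.

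Barx1 is tied to stomach mesenchyme and to Wnt antagonists. Of 22 genes in that list 13 rose and 1 fell (median 0.38), beside 10.4% and 6.56% of all genes. The secreted Wnt antagonist gene Sfrp1 rose from 1993 ± 83.4 to 2991 ± 174 (means ± SD, n = 3; log2 change of 0.58 ± 0.07, adjusted p = 0.0017). The odd-skipped factor genes Osr1 (0.66) and Osr2 (0.63), Gata4 (0.61) and the antagonist gene Dkk2 (0.59) rose too. The antagonist gene Frzb went the other way, from a mean of 581 to one of 85.7 (n = 3; log2 change of −2.75 ± 0.06, adjusted p = 9.21e-08). Between 9 and 14 genes of the list rose in the refits without 1 array, and 7 did with the Y-linked covariate, where Gata4 was among the losses (adjusted p = 0.0558). Some markers of neighbouring tissue passed as higher in the same homozygous samples, beside 10.4% of all genes. Many of these markers were dim. Among genes with means over all arrays of 53.9 to 145, 19.6% were called higher, with a median log2 fold change of 0.14. The called Cldn4, Foxa1, Foxa2, Nkx6-1, Cela1 and Sox10 were in that range, so 10.4% is a low yardstick for them. The called Osr2 of the Barx1 list was in it too, as were Sfrp5, Dkk1, Dkk3 and Wif1, outside the naming rule. For these rises as well 10.4% is a low yardstick. The called Sfrp4 of that list was dimmer still (means of 21.5 and 27.5). Of 15 gut epithelium markers 5 rose and none fell (median 0.30), with summed intensities of 3157 to 3893 on heterozygous and 4042 to 4439 on homozygous arrays. Those called were Cldn6 (0.88), Epcam (0.42), Foxa1 (0.42), Foxa2 (0.31) and Cldn4 (0.30), and none of their calls survived in all refits. The number of the list that rose was 0 without heterozygous array 2 or homozygous array 1, 2 without homozygous array 3 and 3 without heterozygous array 3 or after cyclic loess, and 8 with the replicate number as a block. Of 13 pancreas markers 4 rose (median 0.42): Cpa1 (1.77), Isl1, Nkx6-1 (0.42) and Cela1 (0.31), with sums of 1909 to 2547 and 3705 to 7132. The glucagon gene Gcg, picked after its values were seen, made up much of these sums (means of 596 and 2413) but did not pass (adjusted p = 0.0986). The count of pancreas rises was 2 without heterozygous array 2 or homozygous array 1 or 3, and 8 without homozygous array 2 and with the replicate number as a block. Of 9 enteric neuron and glia markers 5 rose (median 0.41), led by Stmn2 (0.81), Sox10 (0.57), Hand2, Ednrb (0.51) and Gfra1 (0.41), with sums of 1641 to 1815 and 2352 to 2508. The part of these cells in the values of Barx1 and its list was not tested.

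**Figure D3:**
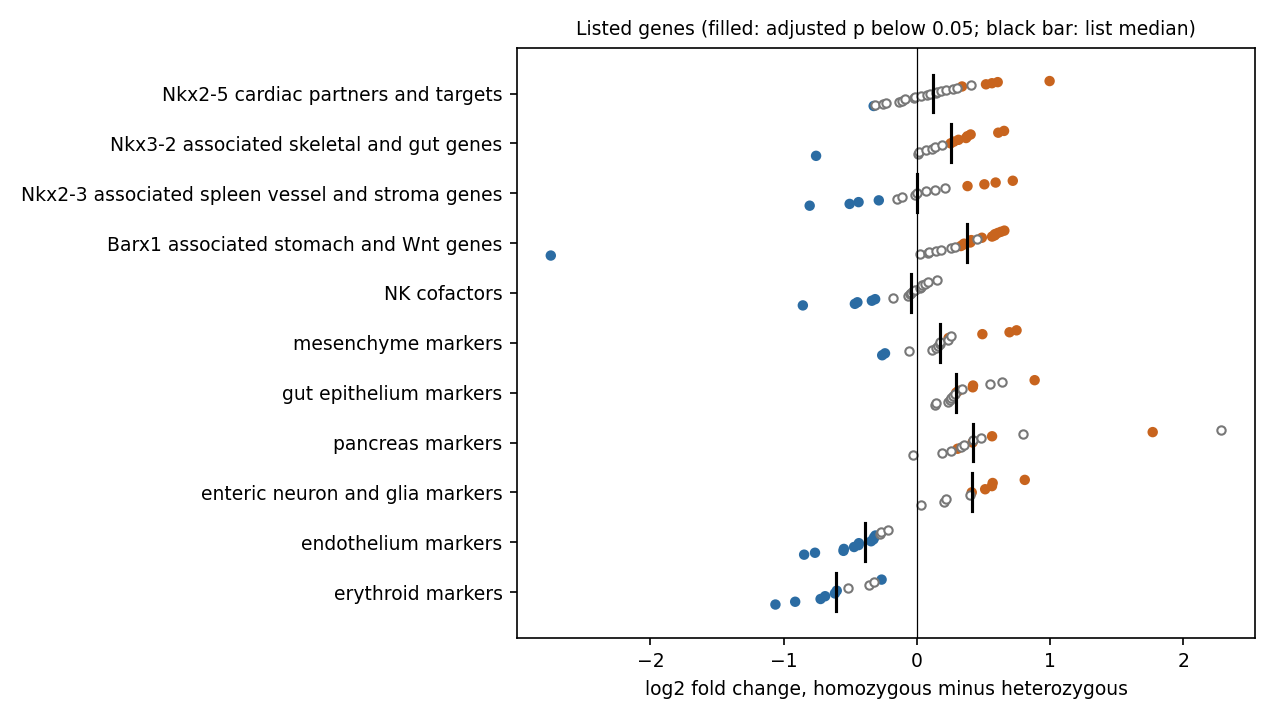
Log2 fold change (homozygous minus heterozygous) of each tested gene in 11 lists, 1 point per gene, filled where the adjusted p is below 0.05 (orange higher, blue lower), with the list median as a black bar. The Barx1 list sits mostly to the right of 0 with Frzb alone at −2.75, the Nkx2-3 list is spread to both sides, and the endothelium list lies wholly below 0.

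No other NK gene was called lower. Of the 13 tested 6 rose and none fell (median 0.32). The called genes were Nkx2-9 (0.56), Nkx6-1 (0.42), Nkx6-2 (0.41), Hmx2 (0.36), Nkx6-3 (0.32) and Nkx1-1 (0.24), which include regulators of the nervous system, the pancreas and the stomach. All 13 were dim, with means over the 6 arrays of 53.9 to 145. Among the 4342 genes tested within that range of means 19.6% were called higher and 5.14% lower, with a median of 0.14. None of the 6 kept its call in every refit. The number of these genes called higher was 0 without heterozygous array 2, homozygous array 1 or homozygous array 3, 2 without heterozygous array 1, 3 without heterozygous array 3 or after cyclic loess, and 8 of 13 without homozygous array 2. Background of these probe sets was not tested, so a low intensity is no proof of expression.

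Among 28 other NK-like homeobox genes 9 rose and 1 fell (median 0.25), beside 10.4% and 6.56% of all genes. Hhex, a factor of endothelial and blood progenitors and of liver, fell from 219 ± 1.04 to 159 ± 6.16 (means ± SD, n = 3; log2 change of −0.46 ± 0.06, adjusted p = 0.00268) and kept its call in all refits. Msx2 (0.60), a target of BMP signalling, Dlx2 (0.60), Dlx1 (0.58), Emx1 (0.44) and Vax1 (0.44) rose. These were dim as well, the brightest being Emx1 at 119 and 163. All of these named rises had means over all arrays of 53.9 to 145, a range in which 19.6% of genes were called higher. Dlx2 lost its call in 4 refits (without heterozygous array 1 or 2 or homozygous array 1 or 3) and after cyclic loess, and Emx1 and Vax1 lost theirs with the Y-linked covariate. The count of rises was 6 without heterozygous array 2 or homozygous array 3 and 15 without homozygous array 2. The paralog of Barx1, Barx2, picked after its values were seen, did not pass (79.2 and 81.8, adjusted p = 0.689).

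**Figure D4:**
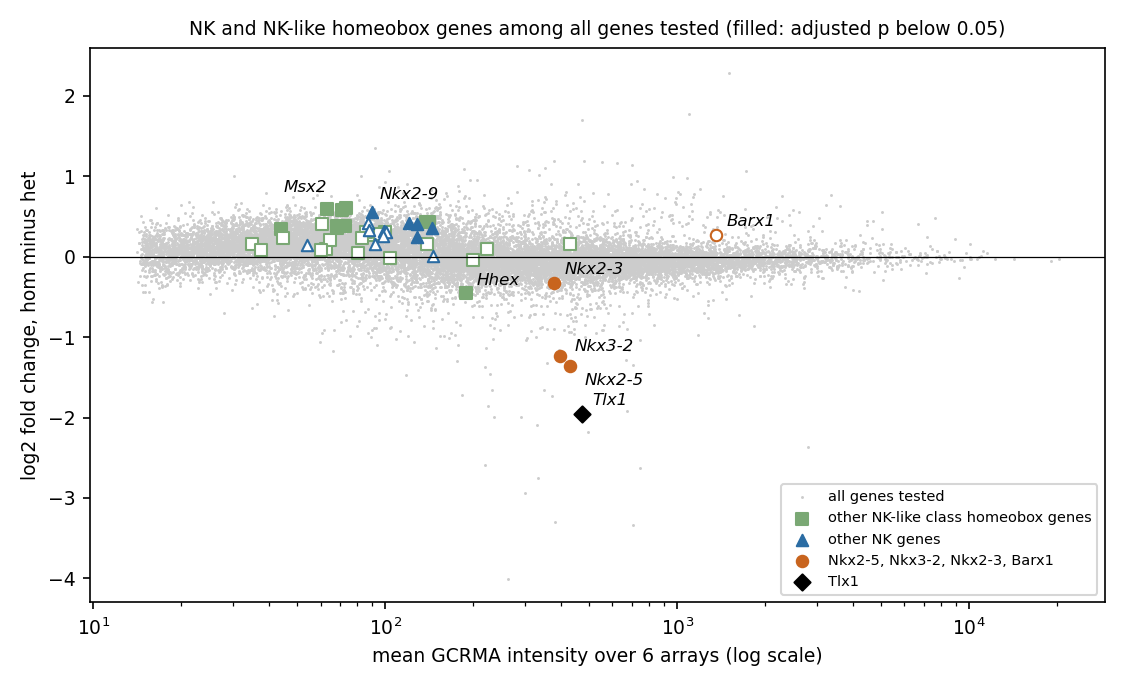
Log2 fold change (homozygous minus heterozygous) against mean intensity over the 6 arrays (log axis) for all 18710 genes tested in grey, the 4 genes in orange, other NK genes as blue triangles, other NK-like genes as green squares and Tlx1 as a black diamond; filled symbols have an adjusted p below 0.05. Nkx2-5 and Nkx3-2 lie near Tlx1 below −1, while the other NK genes lie at or above 0 and at means of 145 or less.

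Mesenchyme markers moved in both directions. Which cells express the 4 genes was not measured in these bulk samples. Of 14 markers 4 rose and 2 fell (median 0.18), beside 10.4% and 6.56% of all genes. Their summed intensity was 33113 to 34237 on heterozygous and 35351 to 37684 on homozygous arrays. The paired-related gene Prrx1 rose by 0.75, Twist2 by 0.70, Dcn by 0.49 and Col1a1 by 0.24, while Tcf21 and Pdgfrb (−0.24) fell. Only Prrx1 and Twist2 kept their calls in all refits. The count of falls was 1 without homozygous array 2 or 3, and it was 0 without any 1 heterozygous array or without homozygous array 1, after cyclic loess, with the replicate block (where Col1a1 too lost its call) and with the Y-linked covariate. The number of rises was 2 without any 1 heterozygous array and with that covariate. Erythroid markers were lower, with 7 of 10 called (median −0.61), Hbb-bh1 (−1.06), Rhag (−0.91), Alas2 (−0.72), Epb42 (−0.69), Tfrc (−0.61) and Hba-x (−0.60) among them. Of the list, 3 were called without homozygous array 1 or with the Y-linked covariate. The summed intensity of the 10 was 13382 to 14466 on heterozygous and 10349 to 11121 on homozygous arrays. Most of these sums came from Hbb-y, outside the naming rule, with means of 10103 and 8413 (n = 3; log2 change of −0.26).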

How the data were processed

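The authors deposited 1 intensity per probe set and array. Per the submitters' processing notes the tool was GCRMA, a method that removes probe background, scales arrays to a common distribution and combines probes. Its version is not given in the sources used here. Values are on a linear scale. Of 35512 probe sets 21789 had 1 gene symbol, 1621 several and 12102 none. Those with 1 symbol were kept where log2(intensity + 1) was at least 4 on at least 3 arrays, and the brightest per gene gave 18710 genes. The difference, homozygous minus heterozygous, was tested in R 4.3.3 by limma 3.58.1 (lmFit, then eBayes; 6 arrays, no covariate), two-sided, Benjamini-Hochberg adjusted over all genes and called below 0.05. The added 1 pulls fold changes of dim genes toward 0. The fit was tested on simulated data, where it recovered 14% of changes of 0.25 on the log2 scale and 92% of changes of 0.5. Small changes such as that of Barx1 can therefore fail to pass. The number of arrays limits precision.

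The members and the gene lists were chosen with earlier results of these data known, so list counts and medians are descriptions and no set test was run. Some genes, such as Gata4, Isl1 and Hand2, stand in more than 1 list, so the counts of different lists are not separate observations. Named are the 4 genes, Tlx1, up to 6 called genes per list with the largest change, and the 3 genes most like each member, skipping predicted, clone and olfactory receptor names. Where no list gene was called, the 2 with the smallest p are named. Gene positions and promoter windows come from RefSeq tables of GRCm38.p6. Protein sequences were not used here. Alternatives were other filters, scalings, probe set averaging, a pseudocount of 16, other variance models, array weights, a replicate block, a Y-linked covariate and refits without 1 array.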

Additional observations from a re-analysis of the deposited data

How the results depend on the processing

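Nkx2-5, Nkx3-2 and Tlx1 kept their direction and passed the threshold under all 18 alternatives, Nkx2-5 at −1.47 to −1.16, Nkx3-2 at −1.27 to −1.17 and Tlx1 at −2.02 to −1.87. Nkx2-3 was below 0 under all 18 and passed in 10. It missed the threshold after quantile normalization (−0.25), after cyclic loess (−0.27), with the replicate block (−0.32, adjusted p = 0.0506) and with the Y-linked covariate (−0.23), and ranged from −0.40 to −0.28 without 1 array. Barx1 was above 0 under all 18 and passed in 9. It passed with the filter at log2 of 6 (0.27), quantile normalization (0.31), cyclic loess (0.31), a pseudocount of 16 (0.27), a variance trend (0.27), array weights (0.28) and the replicate block (0.27, adjusted p = 0.0428), and ranged from 0.22 to 0.34 without 1 array. Among the settings where Barx1 missed were median centring (0.26, adjusted p = 0.0542) and the Y-linked covariate (0.31, adjusted p = 0.124). Over all genes 1951 were higher and 1227 lower, against 1140 and 507 with the Y-linked covariate, which goes partly with genotype. Without 1 array the counts were 699 to 2319 and 499 to 1244, where fewer samples enter. Same-numbered arrays showed no clear shared deviation (correlations of deviations from group means −0.01, 0.04 and −0.11), and not every array correlated best with its own number. With 3 arrays per group these values cannot exclude a pairing, and the main fit has none. The replicate block gave 2091 higher and 1072 lower genes. The differences between members, rerun with cyclic loess, a pseudocount of 16 and without each array, kept their sign except that of Nkx2-5 minus Nkx3-2 (0.03 without homozygous array 2). List counts without 1 array were added after the data were seen. No set of calls is independent evidence for the members, and each gene rests on 1 probe set.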

Other observations

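Mesothelium, smooth muscle and macrophage markers are given beside 17.0% of all genes called. Of 10 mesothelium markers 2 rose and 1 fell (median 0.08). The dim Msln rose by 0.47 on the log2 scale (limma adjusted p = 0.00707) and the zinc finger gene Bnc2 by 0.42, while Wt1 fell by 0.33 on the log2 scale. The mesothelial genes Upk3b (0.02) and Lrrn4 (−0.08) did not pass and were chosen after their values were seen. The count of rises was 4 after quantile normalization and after cyclic loess, and that of falls was 0 without homozygous array 1 and with the Y-linked covariate.

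Of 10 smooth muscle markers 2 rose and 1 fell (median 0.07). The intermediate filament gene Des rose from 543 ± 3.59 to 845 ± 45.1 (means ± SD, n = 3; log2 change of 0.64 ± 0.06, limma adjusted p = 0.000757), and Lmod1 rose by 0.40. Synpo2, which encodes an actin-binding protein, fell from 164 ± 7.45 to 118 ± 3.16 (means ± SD, n = 3; log2 change of −0.46 ± 0.06, limma adjusted p = 0.00308). Rises numbered 1 without heterozygous array 2, homozygous array 1 or homozygous array 3, where Lmod1 lost its call, and falls numbered 2 after quantile normalization and after cyclic loess. None of 10 macrophage markers passed in limma (median 0.06), and Mrc1 (0.27, adjusted p = 0.0574) and Lyz2 (−0.27, adjusted p = 0.136) had the smallest p-values. Before adjustment 3 of the 10 were below 0.05, the other being Csf1r (0.13), picked after its values were seen. Of the macrophage markers 1 was called after quantile normalization, after cyclic loess and without homozygous array 3.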
